A study of Mus musculus with 12 samples.

Results

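The unfolded protein response (UPR) and the chaperones of the endoplasmic reticulum (ER) were examined in 4T1 mammary tumours through 10 genes, Hspa5, Hsp90b1, Calr, Manf, Sdf2l1, Pdia4, Pdia6, Xbp1, Dnajb9 and Herpud1. The genes were chosen by name, with earlier results of these data known, and each matched 1 of the 35453 rows of the mRNA table. All 10 passed the filter on low values, among 14098 genes tested. The 4T1 line is a mammary carcinoma line of the mouse; its cells had been inoculated into Balb/c mice, and the tumours were taken 35 days after inoculation. The stress group (3 libraries) came from mice restrained for 2 hours a day on 28 consecutive days, and the control group (3 libraries) from untreated tumour-bearing mice. The labels do not say that the 3 tumours of a group came from separate mice, so p-values measure the spread between these libraries, which may be technical. The values are normalized log values, taken as base 2, of unknown sequencing depth, and how they were reached is not stated. Whether they were scaled by gene length is not stated, so levels are compared between libraries and not between genes.

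The ER folds secreted and membrane proteins, and when unfolded proteins build up in it the sensors IRE1, PERK and ATF6 are activated. IRE1 splices Xbp1 mRNA into the form that encodes an active transcription factor, ATF6 is cut in the Golgi to release another, and PERK slows translation and favours ATF4. XBP1 and ATF6 raise the transcription of chaperones, disulphide isomerases and the machinery of ER-associated degradation (ERAD), which returns misfolded proteins to the cytosol for destruction. Tumour cells and secretory stromal cells both carry these genes at a high level. Gene-level values do not separate spliced from unspliced Xbp1, and in whole tumours fewer cells of a type and less RNA per cell cannot be told apart.

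ATF6 and XBP1 act through short promoter elements. Matches, full or with 1 letter changed, were found in 6 of the 10 genes and are shown as a sequence feature. The genes were chosen by name, but genes of this kind are known targets of ATF6 and XBP1. The matches are thus not independent of the choice, and their counts are a description. Promoter windows from 250 bases before to 50 bases after the gene start (RefSeq, GRCm38.p6) were found for 9 of the 10 genes; Manf had no entry. The ER stress response element (ERSE), in which 9 free bases separate CCAAT from CCACG, was searched on both strands. It was found in 4 of these 9 genes, Hspa5, Hsp90b1, Calr and Pdia6. Of all 27025 genes with a window of the same length, 37 (0.137%) held it. The related element ERSE-II, in which 1 free base separates ATTGG from CCACG, was searched in the same way and was found in Herpud1 and in 0.0444% of all genes. The matches are printed 5′ to 3′ in the direction of the element, with its fixed letters in capitals.
Hspa5: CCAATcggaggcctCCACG
Hsp90b1, nearer match: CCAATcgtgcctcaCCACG
Hsp90b1, farther match: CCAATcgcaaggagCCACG
Calr: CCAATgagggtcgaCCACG
Pdia6: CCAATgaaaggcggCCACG
Herpud1, ERSE-II: ATTGGgCCACG
Pdia4, 1 letter changed: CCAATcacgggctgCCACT
Herpud1, 1 letter changed: CCAATggatggcagCCACA
Hsp90b1, 1 letter changed: CCAATcggaactgtCCAGG

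The Hspa5 element lies at chr2:34772025-34772043 on the gene's own strand, and its first base is 65 bases before the RefSeq start of the window. The GENCODE M21 gene starts farther upstream, so the element lies inside that gene model. The Hsp90b1 elements lie at chr10:86705533-86705551, on the strand opposite to the gene, and at chr10:86705638-86705656, on the gene's strand. The Calr element lies at chr8:84847075-84847093 on the opposite strand, the Pdia6 element at chr12:17266491-17266509 on the gene's strand, and the Herpud1 ERSE-II at chr8:94386377-94386387 on the gene's strand. Matches with exactly 1 of the 10 fixed letters changed occurred in 3 of the 9 genes and in 1.61% of all genes, with positions counted from 1 at the first C of the element. The Pdia4 match, at chr6:47813602-47813620 on the opposite strand, carries G19T. The Herpud1 match, at chr8:94386411-94386429 on the gene's strand, carries G19A. The Hsp90b1 match, at chr10:86705598-86705616 on the opposite strand, carries C18G. Neither Pdia4 nor Herpud1 had a full ERSE. The UPR element core TGACGTGG, searched on both strands, was found in none of the 9 genes and in 0.714% of all genes. In Sdf2l1, Dnajb9 and Xbp1 neither ERSE nor ERSE-II was present in these windows. The short blocks CCAAT and CCACG are part of both elements; CCAAT alone was found in 8 of the 9 genes and in 41.1% of all genes, and CCACG alone in 8 of the 9 and in 35.5%.

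The ER chaperone and UPR genes differed little between stressed and control tumours. None of the 10 passed the threshold of an adjusted p of 0.05 in either direction (limma with Benjamini-Hochberg adjustment over all genes tested), where 0.0355% of all genes did. At an unadjusted p under 0.05 there was 1, Dnajb9, against 17.4% of all genes. In stress 7 of the 10 had the higher mean and 3 the lower, with a median difference of 0.019 on the log2 scale, against 50.6% of all genes higher and a median of 0.0014. With the mean of the skeletal muscle markers as a covariate, 9 of the 10 were higher with a median of 0.10, again with none called. All 14 of these markers had the lower mean in stress, and their mean was lowest in stress replicate 3. That fit therefore cannot fully separate muscle content from stress or from that library. Without the covariate the differences ran from -0.063 for Manf to 0.17 for Dnajb9. Their 95% intervals, not adjusted for the number of genes, reached at most 1.23-fold higher (Dnajb9) and at the lower end 0.811-fold (Herpud1).

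**Figure D1:**
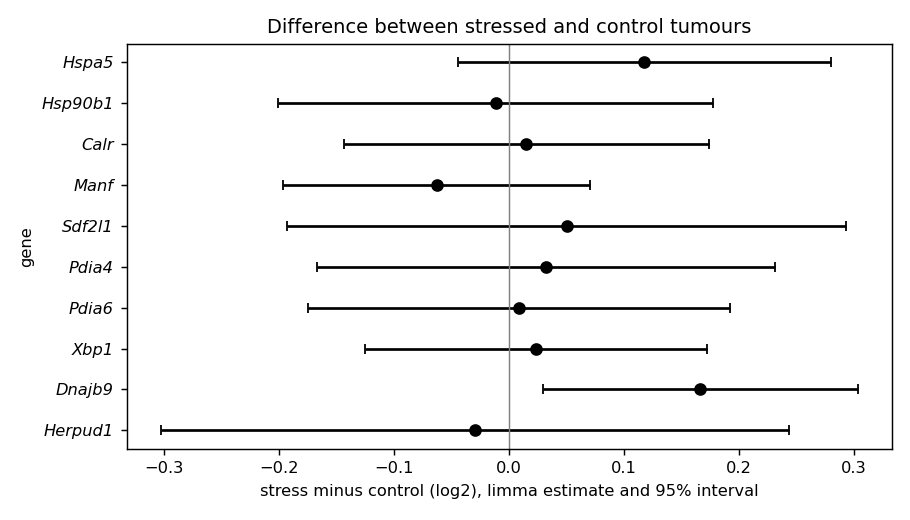
Stress minus control (log2; horizontal axis) for each of the 10 genes, with points for the limma estimate and bars for its unadjusted 95% interval, n = 3 libraries per group. Dnajb9 alone has an interval above 0 (0.030 to 0.30), and its adjusted p was 0.220.

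Hspa5 encodes BiP, the HSP70 chaperone of the ER, which binds unfolded chains and also holds the stress sensors inactive. It lies on the plus strand of chromosome 2 (34771970 to 34777547, GENCODE M21 on GRCm38). Its log2 values were 14.36, 14.36 and 14.44 in the controls and 14.61, 14.50 and 14.41 in the stressed tumours, each in the order of replicates 1, 2 and 3, as in the sentences that follow. Stress replicates 1 and 2 stood above every control, and stress replicate 3 stood below control replicate 3. The difference was 0.12 ± 0.069 (SE; 1.08-fold, 95% interval 0.970 to 1.21), with a limma adjusted p of 0.416.

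Hsp90b1 encodes GRP94, the HSP90 of the ER, which folds integrins and Toll-like receptors among others (chromosome 10, 86690209 to 86705509, minus strand). Its values were 14.61, 14.67 and 14.67 in control and 14.74, 14.70 and 14.47 in stress. The stress libraries held both the highest value, in replicate 1, and the lowest, in replicate 3, with all controls between them. The group means differed by -0.012 ± 0.081 (SE, adjusted p = 0.956 by limma).

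Calr encodes calreticulin, a calcium-binding lectin chaperone for glycoproteins and MHC class I (chromosome 8, 84841850 to 84846934, minus strand). Its values were 14.39, 14.39 and 14.41 in control and 14.50, 14.44 and 14.29 in stress. The controls spanned 0.020 and the stress libraries 0.21, on both sides of the controls. The means differed by 0.015 ± 0.068 (SE, limma adjusted p = 0.933).

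Manf and Sdf2l1 encode small soluble ER proteins that work with BiP. Manf, which binds BiP and is also secreted as a neurotrophic factor (chromosome 9, 106838312 to 106891979, minus strand), had values of 11.29, 11.15 and 11.30 in control and 11.23, 11.16 and 11.15 in stress. All stress values lay within the range of the controls. The difference was -0.063 ± 0.057 (SE, limma adjusted p = 0.597).

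Sdf2l1, a partner of ER J-proteins (chromosome 16, 17130138 to 17132383, minus strand), had values of 8.55, 8.35 and 8.49 in control and 8.60, 8.63 and 8.30 in stress. Stress replicates 1 and 2 were above all controls, and stress replicate 3 was the lowest of the 6 libraries. The difference was 0.050 ± 0.10 (SE, limma adjusted p = 0.837).

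Pdia4 and Pdia6 encode protein disulphide isomerases, which form and reshuffle disulphide bonds. Pdia4 (chromosome 6, 47796141 to 47813430, minus strand) had values of 11.89, 11.80 and 11.86 in control and 12.03, 11.92 and 11.70 in stress. Pdia6, which also attenuates IRE1 signalling (chromosome 12, 17266545 to 17284770, plus strand), had values of 12.85, 12.80 and 12.86 in control and 12.96, 12.90 and 12.68 in stress. Both genes were highest in stress replicate 1 and lowest in stress replicate 3, with the controls in between. The differences were 0.032 ± 0.085 (SE, limma adjusted p = 0.880) for Pdia4 and 0.0085 ± 0.078 (SE, adjusted p = 0.968) for Pdia6.

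Xbp1, the transcription factor of the IRE1 branch (chromosome 11, 5520659 to 5525893, plus strand), had values of 11.37, 11.29 and 11.49 in control and 11.45, 11.44 and 11.35 in stress. Every stress value lay inside the range of the controls. The difference was 0.023 ± 0.063 (SE; 1.02-fold, 95% interval 0.917 to 1.13), with a limma adjusted p of 0.881.

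Dnajb9 encodes ERdj4, a J-protein that hands substrates to BiP and to ERAD and acts as a repressor of IRE1 (chromosome 12, 44205559 to 44210326, minus strand). Its values were 9.42, 9.42 and 9.47 in control and 9.61, 9.52 and 9.68 in stress. All 3 stress libraries stood above all 3 controls, the only one of the 10 genes for which the groups did not overlap, and 12.1% of all genes were separated in that direction. The difference was 0.17 ± 0.058 (SE; 1.12-fold, 95% interval 1.02 to 1.23), with a limma adjusted p of 0.220. An exact two-sided permutation test of this gene gave p = 0.1, the smallest that 3 libraries against 3 allow. Of all genes tested, 21.6% had a larger absolute difference.

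Herpud1 encodes a membrane protein that organises the ERAD complex (chromosome 8, 94386438 to 94395377, plus strand). Its values were 9.21, 9.52 and 9.70 in control and 9.45, 9.46 and 9.43 in stress. Here the controls were the spread group, with a range of 0.49, and the stress libraries lay within 0.034 of each other in the middle of it. The difference was -0.029 ± 0.12 (SE, limma adjusted p = 0.922). Without control replicate 3 it was 0.083, and without control replicate 1 it was -0.16.

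**Figure D2:**
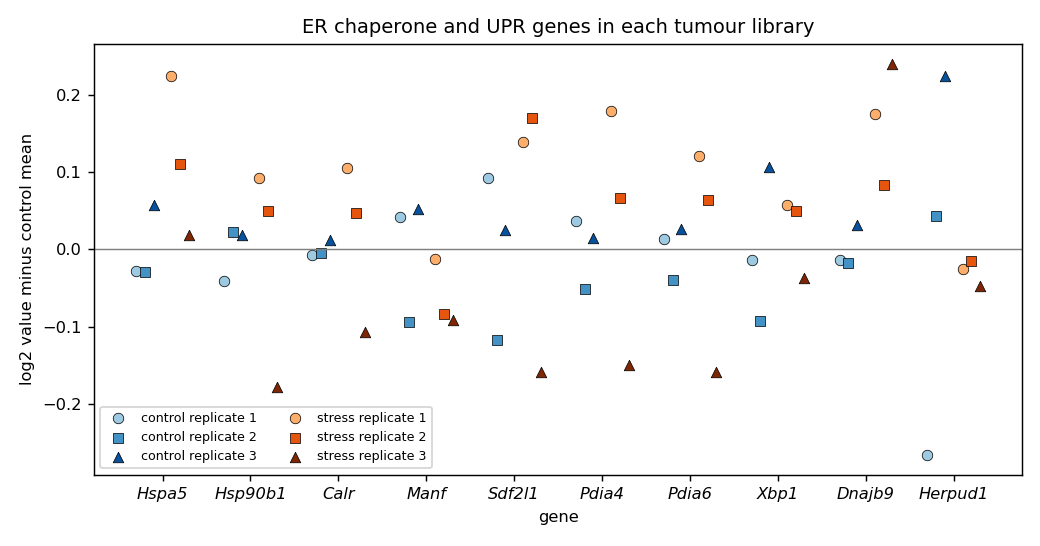
Log2 value minus the control mean (vertical axis) for each gene in each of the 6 libraries, with blue symbols for control and orange to brown for stress. In Hsp90b1, Calr, Sdf2l1, Pdia4 and Pdia6 stress replicate 1 lies above and stress replicate 3 below all controls, whereas in Dnajb9 stress replicate 3 is the highest library.

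In 9 of the 10 genes, all but Dnajb9, the stress libraries spanned a wider range than the difference between the group means, as in 73.0% of all genes. Stress replicate 1 was above all controls and stress replicate 3 below all controls in 5 of the 10 genes, Hsp90b1, Calr, Sdf2l1, Pdia4 and Pdia6, and in 3.84% of all genes tested. In 7 of the 10, these 5 without Sdf2l1 together with Hspa5, Manf and Xbp1, stress replicate 1 was the highest and stress replicate 3 the lowest of the stress libraries, as in 17.3% of all genes. This pattern was chosen after the values were seen, and the genes are known to be co-regulated, so the counts are a description. The gap between stress replicates 1 and 3 ran from 0.21 to 0.33 in Hspa5 and these 5 genes. The median SD over the 10 genes was 0.048 in control and 0.11 in stress, against 0.074 and 0.080 over all genes.

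Most of these differences grew when stress replicate 3 was left out. It was the lowest stress library in 9 of the 10 genes, all but Dnajb9, and in 35.9% of all genes. Leaving it out had to raise the stress means of those 9, so what follows is a description. Without stress replicate 3, 7 of the 10 genes had both remaining stress libraries above all controls, where 16.9% of all genes did. These were Hspa5, Hsp90b1, Calr, Sdf2l1, Pdia4, Pdia6 and Dnajb9. The difference was then 0.17 ± 0.060 (SE) for Hspa5, 0.15 ± 0.081 for Sdf2l1, 0.12 ± 0.058 for Pdia4, 0.092 ± 0.051 for Pdia6, 0.076 ± 0.049 for Calr and 0.071 ± 0.051 for Hsp90b1. None passed the threshold, and the smallest adjusted p was 0.311, for Hspa5 (limma). Without stress replicate 1 the same 6 genes stood between -0.064 (Hsp90b1) and 0.064 (Hspa5). Dnajb9 stood at 0.16 without replicate 1 and at 0.13 without replicate 3.

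**Figure D3:**
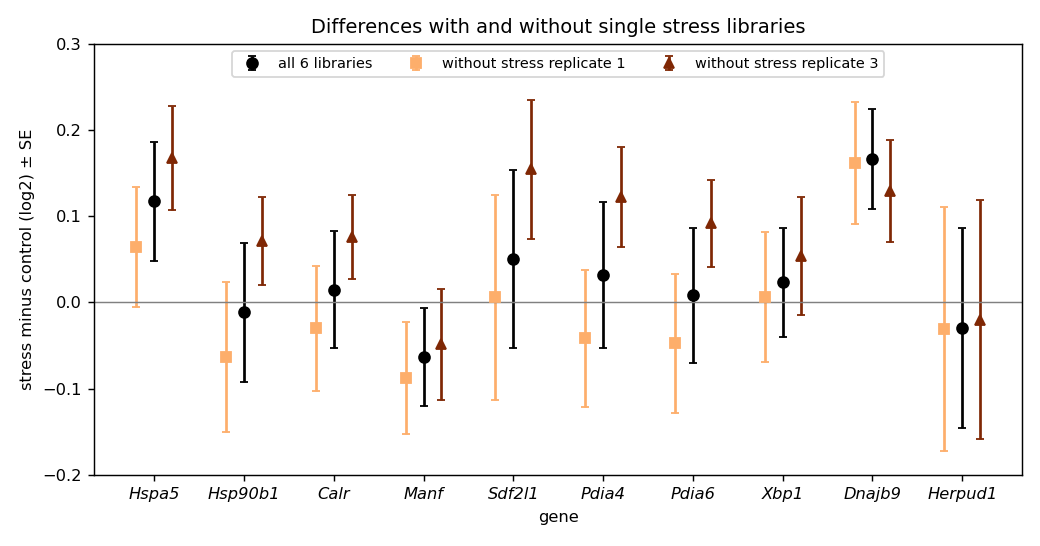
Stress minus control (log2) ± SE from limma for each gene with all 6 libraries (black circles), without stress replicate 1 (light squares) and without stress replicate 3 (brown triangles). Pdia4 moves from -0.042 without replicate 1 to 0.12 without replicate 3, and Dnajb9 stays between 0.13 and 0.17.

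Marker genes of other cell types also varied between these libraries. Relative to the control mean, the 14 skeletal muscle markers stood on average at -0.61, -0.44 and -1.62 in stress replicates 1 to 3 and between -0.79 and 0.52 in the controls. The 12 fibroblast and collagen genes stood at -0.37, -0.36 and -0.53 in stress and between -0.40 and 0.33 in control, and the 7 neutrophil markers at 0.53, 0.22 and 0.87 in stress and between -0.10 and 0.062 in control. Stress replicate 3 was thus the lowest of the stress libraries in the muscle and fibroblast means and the highest in the neutrophil mean, and the part of fibroblasts and neutrophils in the chaperone values was not tested. With the muscle mean as a covariate Hsp90b1 moved from -0.012 to 0.10 and Herpud1 from -0.029 to 0.15, and the smallest adjusted p of the 10 genes in that fit was 0.579, for Hspa5 (limma). Because the muscle mean itself differed between the groups, these shifts cannot be assigned to muscle content. Of 11 plasma and B cell markers with a value, 5 were tested, all with a lower mean in stress (median -0.12), and the plasma cell receptor Tnfrsf17 was near the bottom of the table in every library (-0.98 to -0.97). The 8 endothelial markers stood at -0.24, -0.39 and -0.33 in stress, the 8 macrophage markers at 0.058, 0.21 and -0.15, and the 8 tumour epithelial markers at 0.099, -0.20 and 0.034. No gene of these 7 lists was called (limma). Lower means in stress were seen in 14 of 14 muscle, 11 of 12 fibroblast and 8 of 8 endothelial genes, and higher means in 6 of 7 neutrophil genes. Of all genes tested, 50.6% had the higher mean. At an unadjusted p under 0.05, 4, 6 and 5 of the first 3 lists were lower (9.15% of all genes) and 4 neutrophil genes were higher (8.26%). The neutrophil marker Ly6g was too low to be tested (-0.10 to -0.055). The members with the smallest p were Thy1 (-0.49, limma adjusted p = 0.0769) and Pdgfra (0.19, adjusted p = 0.415) for fibroblasts, Kdr (-0.55, adjusted p = 0.106) for endothelium and Mb (-0.55, adjusted p = 0.175) for muscle. For neutrophils they were Csf3r (0.62, limma adjusted p = 0.0881) and Retnlg (-0.065, adjusted p = 0.882), for macrophages Cd68 (0.22, adjusted p = 0.131) and Adgre1 (-0.13, adjusted p = 0.609), and for B cells Ighm (-0.72, adjusted p = 0.333). All 8 epithelial markers had values in every library. Over the 6 libraries the keratin Krt8 ran from 13.75 to 13.89, Krt19 from 8.43 to 9.21 and the claudin Cldn4 from 9.93 to 10.66. Krt7 was lower in all stress libraries than in any control (-0.36, limma adjusted p = 0.221), and Krt18 stood at 0.10 (adjusted p = 0.498).

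Among 8 sensors and transducers upstream of the chaperones, none was called in limma, with 1 lower at an unadjusted p under 0.05, 6 higher and 2 lower in mean, and a median of 0.038. Ern1, which encodes IRE1 alpha, was 0.10 higher in stress, with no overlap of the groups (adjusted p = 0.333 by limma). Creb3l2, a membrane-bound transcription factor related to ATF6, stood at -0.15 (adjusted p = 0.277).

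The other luminal chaperones and cofactors were split evenly, with 7 of 14 higher and 7 lower, a median of -0.0061, none called by limma and none at an unadjusted p under 0.05. In 3 of the 14 stress replicate 1 was above and stress replicate 3 below all controls, as in the 5 genes above and in 3.84% of all genes. These were Canx, the membrane-bound relative of calreticulin, Hyou1, a nucleotide exchange factor of BiP, and Dnajc3, a J-protein of BiP. The pattern was also seen in 1 gene each of the sensor (Atf6b), disulphide enzyme (Pdia3), ERAD (Derl2), heat shock (Hspd1) and tumour epithelial (Cldn4) lists. Hyou1 was at 12.00, 11.88 and 11.61 in stress replicates 1 to 3, and between 11.80 and 11.91 in control. Serpinh1, the collagen chaperone HSP47, had the smallest p on the lower side (-0.17, adjusted p = 0.316 by limma) and Sdf2, the constitutive relative of Sdf2l1, on the higher side (0.12, adjusted p = 0.515).

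The other disulphide enzymes gave a median of -0.0024 over 14 genes (7 higher, 7 lower), with none called in limma and 1 higher and 2 lower at an unadjusted p under 0.05. Ero1l, the oxidase that recharges disulphide isomerases, is also induced by hypoxia. It had the widest difference of the list, at 11.81, 12.29 and 11.81 in control and 12.57, 12.38 and 13.19 in stress. Its stress libraries lay above all controls, by 0.74 ± 0.23 (SE) in the mean (adjusted p = 0.189 by limma), and stress replicate 3, the lowest library for 5 of the 10 ER genes, was here the highest. Txndc5, a disulphide isomerase, stood at -0.13 (limma adjusted p = 0.219).

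Of 17 ERAD genes none was called by limma (1 higher and 3 lower at an unadjusted p under 0.05). Their median was 0.0040, with 9 higher and 8 lower. Herpud2, the paralogue of Herpud1, was 0.13 higher (adjusted p = 0.241 by limma), and Vcp, the ATPase that pulls substrates out of the membrane, stood at -0.18 (adjusted p = 0.201).

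Genes that bring proteins into the ER mostly had the lower mean in stress, and genes that carry them out were more evenly split. Of 22 translocation genes 17 had the lower mean (median -0.095), and in 8 all stress libraries lay below all controls, against 12.3% of all genes. None was called by limma, and 6 were lower at an unadjusted p under 0.05, where 9.15% of all genes were. Sec61a1, the pore of the translocon, was at 11.82, 11.87 and 11.86 in control and 11.67, 11.71 and 11.68 in stress, a difference of -0.16 (adjusted p = 0.154 by limma). Srpr, the receptor of the signal recognition particle, was 0.15 higher (adjusted p = 0.372). Among 20 export and retrieval genes 12 were lower and 8 higher (median -0.028), where 50.6% of all genes had the higher mean. In 7 of the 20 all stress libraries lay below all controls (12.3% of all genes). None was called by limma, and 5 were lower at an unadjusted p under 0.05 (9.15% of all genes). Surf4, a cargo receptor, stood at -0.14 (adjusted p = 0.193), and Mia3, which loads collagen, was 0.044 higher (adjusted p = 0.703).

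Of 10 genes of the PERK-ATF4 branch, 9 had the higher mean in stress (median 0.19), 5 of them at an unadjusted p under 0.05 (8.26% of all genes in that direction) and none called by limma. The 5 were Ddit3, Trib3, Ppp1r15a, Atf3 and Nupr1. The others moved less, with Atf4 at 0.078, Asns at 0.095, Chac1 at 0.15 and Sesn2 at 0.0015. Eif2ak3, which encodes PERK and was listed with the sensors, stood at -0.045. Whether PERK itself was active was not tested. Nupr1, a stress-induced chromatin factor, was 0.40 higher (adjusted p = 0.136 by limma), and Ppp1r15b, the constitutive subunit of an eIF2 alpha phosphatase, stood at -0.065 (adjusted p = 0.479). The mean of the list above the control mean was 0.15, 0.20 and 0.39 in stress replicates 1 to 3, highest in replicate 3, where the mean of the 10 chaperone and UPR genes was lowest, at -0.067. Of 13 heat shock genes outside the ER, 12 were higher (median 0.13), 6 of them at an unadjusted p under 0.05 (8.26% of all genes in that direction). In 9 all stress libraries lay above all controls, against 12.1% of all genes. Hspa1a was 1.15 higher (limma adjusted p = 0.0619), and Hspa1b alone was called. The mean of Hspa1b was 1.18 higher in stress (limma adjusted p = 0.0399). The call ended with the muscle covariate (adjusted p = 0.400), with a replicate block (0.178) and without control replicate 1 (0.0668), control replicate 3 (0.207), stress replicate 1 (0.136), stress replicate 2 (0.0684) or stress replicate 3 (0.109), and the difference stayed between 1.11 and 1.29. In the same tumours Hspa5, of the same HSP70 family, was 0.12 higher. Hspd1, the mitochondrial HSP60, stood at -0.051 (adjusted p = 0.777). No test compared these lists with the 10 genes.

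**Figure D4:**
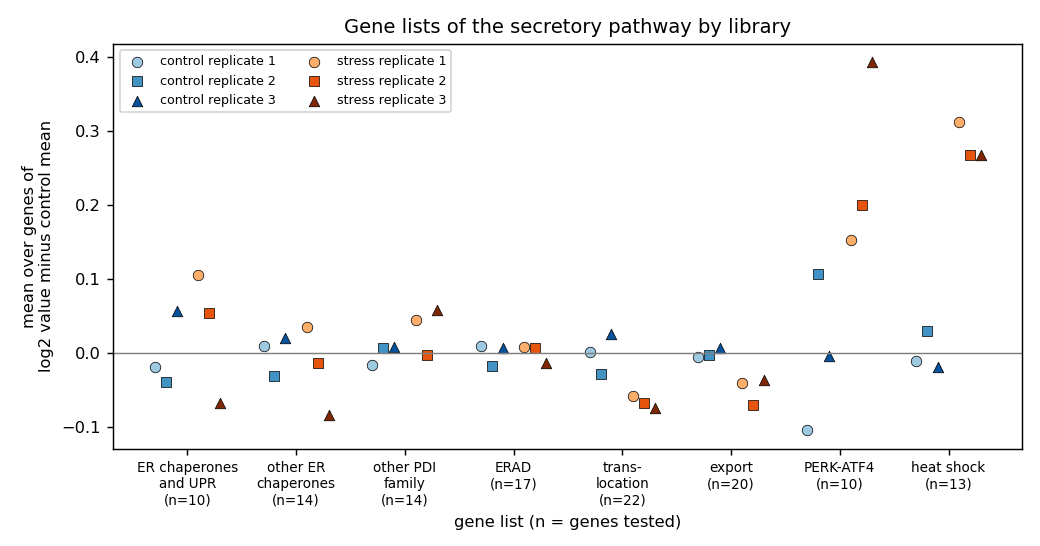
Mean over the tested genes of each list of the log2 value minus the control mean (vertical axis), for each of the 6 libraries. The ER chaperone and UPR genes run from 0.11 in stress replicate 1 to -0.067 in stress replicate 3. All stress libraries lie above the controls for the PERK-ATF4 branch (0.15 to 0.39, controls -0.10 to 0.11). The same holds for the heat shock genes outside the ER (0.27 to 0.31, controls -0.019 to 0.030).

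The ERSE was also used to look beyond the 10 genes. Of the 37 genes with a full match, 19 were tested, 4 of them among the 10 genes and 15 others, with Ero1b found under its older symbol Ero1lb. Of the 15 others, 7 had the higher mean in stress and 8 the lower, with a median of -0.023, none called by limma and 1 at an unadjusted p under 0.05. Canx and Dnajc3 are among them, as are Creld2, a secreted ER stress protein, and Syvn1, the ubiquitin ligase HRD1 of ERAD. Syvn1 differed by 0.032 and Creld2 by -0.075. Stress replicate 1 above and stress replicate 3 below all controls was seen in 3 of the 15, Canx, Dnajc3 and Spats2l. Of these, Canx and Dnajc3 were already counted above among the other chaperones. The pattern was also seen in 3 of the 4 ERSE genes among the 10, Hsp90b1, Calr and Pdia6, and in 3.84% of all genes. Sdf2l1 and Pdia4, which had no full ERSE, showed it too, and a link between element and pattern was not tested.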

How the data were processed

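The authors' deposited mRNA table holds log2 values, although it is named as raw counts. The values were fractional, from -1.97 to 17.85. The base is not stated; taken as base 2, the libraries summed to 1.69e+07 to 1.77e+07 on the linear scale, a size that read totals have. Reads were 150-bp pairs, per the labels, and bcl2fastq, kallisto 0.46.1 and mm10 are named in the submitters' processing notes. How kallisto's estimates became log2 values is not stated there. No row was at 0 in only some libraries, and the low row of Tnfrsf17 ran only from -0.98 to -0.97. It is not known whether values were drawn together between libraries before deposit. If they were, the differences, SDs and intervals given here would be too narrow. Rows at 0 in all libraries (12658) and rows named by a date (26) were removed. Stress was compared with control by limma 3.58.1 in R 4.3.3 (variance trend, robust) on the 14098 genes whose log2 values averaged at least 4, with Benjamini-Hochberg adjustment and no covariates. The fit was tested on simulated data. The miRNA libraries (6) were not used here. Gene lists count a gene once where an older and a newer symbol were both listed. All 10 members were named, and from each other list the called genes, or the smallest p in each direction. Tnfrsf17, Ly6g, Krt8, Krt19, Cldn4, Eif2ak3, Hspa1a and the remaining PERK-ATF4 genes were chosen after their values were seen. So were the genes named for a shared pattern or element. The members and lists were chosen with earlier results of these data known. Normalization, filter, variance model, a replicate block, a muscle covariate and single libraries were varied.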

Additional observations from a re-analysis of the deposited data

How the results depend on the processing

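None of the 10 genes was called under any of the 14 alternatives. The smallest adjusted p was 0.202, for Dnajb9, which stayed higher in stress under all 14, as did Hspa5, while Manf stayed lower. The number of genes called over the whole table was 5; it was 8 after quantile normalization, 11 among genes averaging at least 6, 0 with a replicate block, 0 with a muscle covariate, and 0 to 5 without single libraries. The cause was not tested. Replicate numbers gave no sign of pairing by correlation. Deviations of same-numbered libraries correlated at -0.079, 0.082 and -0.018 over genes, and those of differently numbered ones at -0.14 to 0.16. With 3 libraries per group these values cannot exclude a shared day or batch. In this balanced design the replicate block leaves the differences as they are (median 0.019) and changes their errors; none of the 10 genes was called with it.

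Without single libraries 4 to 8 of the 10 genes were higher, 1 to 7 had groups that did not overlap (31.0% to 36.9% of all genes in these settings, 24.3% with all libraries), and the median difference ran from -0.031 to 0.084. After quantile normalization Hsp90b1 turned to 0.012, Pdia4 to -0.012, Pdia6 to -0.033 and Xbp1 to -0.024. With the muscle covariate, which itself differed between the groups, Hsp90b1 was at 0.10 and Herpud1 at 0.15. In that fit 9 of the 10 genes were higher, and the median of the 10 was 0.10. Without single libraries Hsp90b1 ran from -0.064 to 0.071, Calr from -0.030 to 0.076, Sdf2l1 from -0.0096 to 0.15, Pdia4 from -0.042 to 0.12, Pdia6 from -0.047 to 0.092, Xbp1 from -0.023 to 0.077 and Herpud1 from -0.16 to 0.083. Depth behind the log2 values is unknown, so its limit on these small differences cannot be given.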
